A study of Arabidopsis thaliana with 18 samples.

Results

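The response of wild-type Arabidopsis thaliana seedlings (accession Col-0) to 1 h of simulated shade was described from 6 of the 18 arrays of the study. The members were chosen by their titles and not by any measured value: 3 arrays of Col-0 labelled SH and 3 arrays of Col-0 labelled Wc. SH seedlings received 1 h of light poor in red relative to far-red (R:FR of 0.7, far-red at 20.2 µmol m-2 s-1). Wc seedlings stayed in the simulated white light, whose red part was 13 µmol m-2 s-1 and whose blue part was 1.23 in the same unit. The red and blue values given for the SH seedlings were the same. All seedlings were 7 days old, were grown at 22 °C and were sampled whole, and the Col-0 plants carry neither mutation of the study. The other 12 arrays hold the same lights in the mutants sav3-2 and sav1-1, with 3 arrays in each group, and they enter the shared estimate of the spread. The replicates are described by the submitters as independent biological ones. In whole seedlings, a change in RNA per cell and a change in the share of cells of a type cannot be told apart.

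Far-red light reflected by neighbouring leaves lowers R:FR and inactivates phytochrome B, a red-light receptor. Phytochrome-interacting factors (PIFs), which are bHLH transcription factors, then become active and switch on genes of auxin synthesis and response. Auxin drives elongation of stems and petioles, in which enzymes and proteins that loosen the cell wall take part.

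The data were 1 intensity per probe set and array. Deposited medians lay between 38.5 and 56.8 on the Col-0 arrays, so all arrays were quantile normalized. Across probe sets, arrays correlated with r of 0.975 to 0.983 within SH, 0.974 to 0.983 within Wc and 0.97 to 0.981 between the lights. On the second principal component, which held 12.3% of the variance, the arrays numbered 3 lay apart. Root markers (EXPA7 at 0.18 and EXPA18 at 0.12) and shoot markers (FDH at -0.24, LHCB4.1 at -0.05 and RCA at 0.06, all log2 changes) were both measured, and none of these was called.

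Low R:FR raised more transcripts than it lowered, and raised them further. At a Benjamini-Hochberg adjusted p under 0.05 in limma, 191 of 17125 probe sets were called (1.12%). Of these 161 were higher in low R:FR (0.94%) and 30 lower (0.175%). The increases had a median of 1.03 on the log2 scale (from 0.395 up to 3.41), and the decreases a median of -0.71 (from -0.49 down to -1.11). For comparison, the median change of all tested probe sets was -0.0117, with a 5th percentile of -0.328 and a 95th percentile of 0.323. At least 2-fold increases were called for 84 probe sets (0.491%), at least 4-fold increases for 20, and decreases of at least 2-fold for 2. At an unadjusted p under 0.05 the directions were near even, with 683 probe sets higher and 708 lower. The SH and Wc arrays did not overlap for 160 of the 161 raised probe sets and for 29 of the 30 lowered ones (5.62% and 6.04% of all tested probe sets). These probe sets were called on the same arrays, so their separation is a description only. Of the 66 named raised genes 37 were called in each of the 6 fits that left out 1 Col-0 array.

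**Figure D1:**
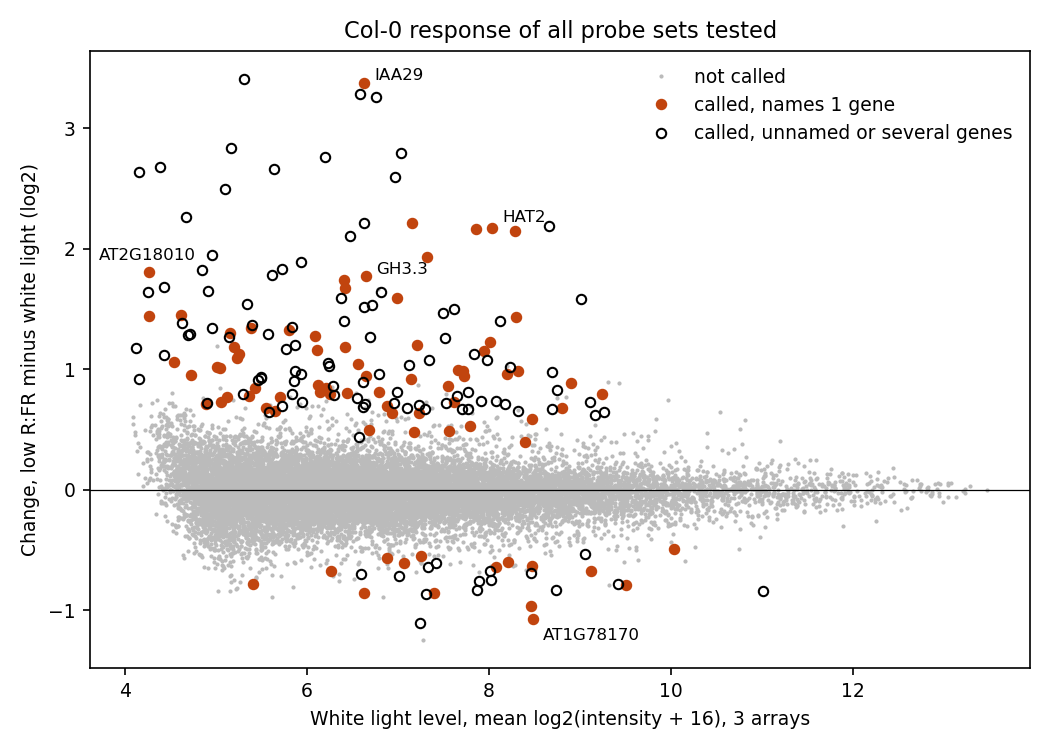
Log2 change in Col-0 (low R:FR minus white light) of each tested probe set against its mean log2 level in white light. Called probe sets are coloured, 161 higher and 30 lower, and the increases reach 3.41 where the decreases end at -1.11.

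Most of the probe sets with large increases are not named by the annotation used here. Of the 191 called probe sets, 81 name 1 gene (66 higher, 15 lower), 1 names several and 109 name none, and 15 of the 20 largest increases are unnamed. Probe set 253066_at had intensities of 610, 487 and 223 in low R:FR, against 18, 47.3 and 13 in white light (log2 change 3.41, SE 0.49, limma adjusted p = 0.00023). Probe set 245276_at had 1094, 1026 and 692 in low R:FR, against 97.3, 78.7 and 66.2 in white light (3.29, SE 0.21, limma adjusted p = 1.56e-09). For both, each SH array lay far above each Wc array. What follows concerns the named genes, of which 9352 were tested, with 0.706% called higher and 0.16% lower.

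Genes of auxin response and 1 gene of auxin synthesis were among those that rose. IAA29 encodes an Aux/IAA protein, a repressor of auxin signalling that auxin itself induces. Its intensity was 1176, 971 and 900 in low R:FR, against 193, 88.7 and 27.9 in white light (log2 change 3.38, SE 0.35, limma adjusted p = 2.19e-06). The SH arrays were close together and the Wc arrays were spread widely, without overlap. IAA30, of the same family, was dim throughout, with 33.2, 32.5 and 32.1 in low R:FR and 17.1, 11.3 and 13.1 in white light (0.71, SE 0.16, limma adjusted p = 0.0281). Of the 4 Aux/IAA genes tested 2 were called higher and none lower, with a median change of 0.52. IAA30 was no longer called in 5 of the 6 fits that left out 1 array, nor without the arrays numbered 3 (limma adjusted p = 0.191), which leaves IAA29 as the 1 called member. The remaining members were IAA18, at -0.33 (SE 0.13), and IAA34, at 0.33 (SE 0.25).

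GH3 enzymes join auxin to amino acids and so take it out of the active pool. GH3.3 had 368, 312 and 300 in low R:FR, against 91.4, 81.7 and 79.5 in white light (1.77, SE 0.14, limma adjusted p = 4.43e-08). WES1, also called GH3.5, had 646, 523 and 505 in low R:FR, against 308, 317 and 219 in white light (0.96, SE 0.14, limma adjusted p = 0.000202). Neither gene had overlapping groups. GH3.17 fell just outside the threshold, with 494, 501 and 412 in low R:FR and 342, 337 and 257 in white light (0.57, SE 0.14, limma adjusted p = 0.0536). In all, 2 of 5 GH3 genes were called higher, at a median of 0.57. YUC2 is a flavin monooxygenase that makes auxin. It had 77.7, 63.4 and 77 in low R:FR, against 39.7, 33.1 and 35.5 in white light (0.77, SE 0.12, limma adjusted p = 0.000846). Of 3 genes of auxin synthesis and inactivation it alone was called, with YUC6 at -0.20 (SE 0.28) on dim arrays and UGT74D1 at -0.02 (SE 0.13). The change of YUC2 was 0.99 with a pseudocount of 1 and 0.45 with 64. YUC2 and WES1 were called in each fit that left out 1 array. Without normalization between arrays neither was called, at changes of 0.63 and 0.78. AT2G18010, the auxin-induced SAUR10, was near the bottom of the scale in white light, with 57, 46.7 and 50.4 in low R:FR and 6.62, 1.52 and 1.74 in white light (1.81, SE 0.20, limma adjusted p = 7.01e-06). With pseudocounts of 1 and 64 in place of 16 its change was 3.80 and 0.78, so its size depends on the scale.

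A few of the measured transcription factor and signalling genes with a symbol were called higher. The family counts cover the genes matched to each list, so members with a locus ID only can be missing. HAT2 encodes a homeodomain leucine zipper factor of class II, a class with known shade-induced members. Its intensity was 1250, 1080 and 1157 in low R:FR, against 274, 223 and 241 in white light (2.17, SE 0.13, limma adjusted p = 1.16e-09), with both groups even and far apart. BZIP61, a bZIP factor, had 564, 649 and 556 in low R:FR, against 259, 233 and 237 in white light (1.22, SE 0.14, limma adjusted p = 9.03e-06). BZIP34, its close relative, had 73.5, 66.5 and 62.7 in low R:FR, against 24.7, 26.5 and 12.6 in white light (1.18, SE 0.18, limma adjusted p = 0.000381). These were the 2 called of 12 bZIP genes tested, and the median of the family was 0.09.

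WRKY22, a WRKY factor known from defence, was the 1 called member of 5 WRKY genes (family median -0.12). It had 99.1, 95.1 and 76.2 in low R:FR, against 21.1, 28.8 and 27.7 in white light (1.34, SE 0.17, limma adjusted p = 4.43e-05). BIM1, a bHLH partner in brassinosteroid signalling, had 429, 369 and 216 in low R:FR, against 168, 125 and 109 in white light (1.2, SE 0.22, limma adjusted p = 0.00375). It was the 1 called of 6 genes on the bHLH list, among which bHLH121 stood at 0.44 and bHLH104 at -0.15. That list leaves out MYC3, given below with the jasmonate genes at -0.46. FHL, which helps carry phytochrome A into the nucleus, had 103, 60.4 and 47.4 in low R:FR, against 16.8, 22.1 and 28.2 in white light (1.13, SE 0.27, limma adjusted p = 0.0343). Its SH arrays were uneven, and its call was lost in 4 of the 6 fits that left out 1 array. HYH, a bZIP factor of light signalling, had overlapping groups, at -0.21 (SE 0.13).

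PUB25, a U-box ubiquitin ligase, had 150, 154 and 142 in low R:FR, against 68.7, 48.2 and 42.2 in white light (1.27, SE 0.18, limma adjusted p = 0.000143). P1R3 had 60.1, 53.7 and 40.3 in low R:FR, against 9.61, 9.79 and 6.09 in white light (1.45, SE 0.24, limma adjusted p = 0.0011). The change of P1R3 was 2.47 with a pseudocount of 1 and 0.67 with 64, since its white-light values are dim.

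Cell-wall genes were raised in part. EXLA2, an expansin-like protein, had 129, 135 and 154 in low R:FR, against 45.1, 66.1 and 50.4 in white light (1.16, SE 0.14, limma adjusted p = 1.89e-05). EXLA1 had 139, 128 and 309 in low R:FR, against 54.2, 79.7 and 108 in white light (1.04, SE 0.24, limma adjusted p = 0.0263), and SH replicate 3 stood above the other SH arrays. XTH33, a xyloglucan endotransglucosylase/hydrolase, had 40.3, 50.1 and 63.4 in low R:FR, against 12.2, 18.8 and 20.8 in white light (1.01, SE 0.19, limma adjusted p = 0.00366). These were the 3 called of 22 expansin and XTH genes, and 1 was called without normalization. EXLA1 was lost in 3 of the 6 fits that left out 1 array, and XTH33 without the arrays numbered 3 (limma adjusted p = 0.0609). The list's median was 0.18 and 17 members were positive, but the median was 0.05 without normalization, where that of all probe sets was -0.157. Members that were not called included EXPB1 at 0.68, EXPA8 at 0.45 and XTH32 at -0.31. EXO (EXORDIUM), a brassinosteroid-linked gene of cell expansion, had 484, 604 and 794 in low R:FR, against 271, 308 and 332 in white light (0.98, SE 0.16, limma adjusted p = 0.000903). None of the 12 tested genes on the list of cellulose, pectin and other wall enzymes was called. Wall genes with a locus ID only can be missing from that list, so it does not cover all of them.

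**Figure D2:**
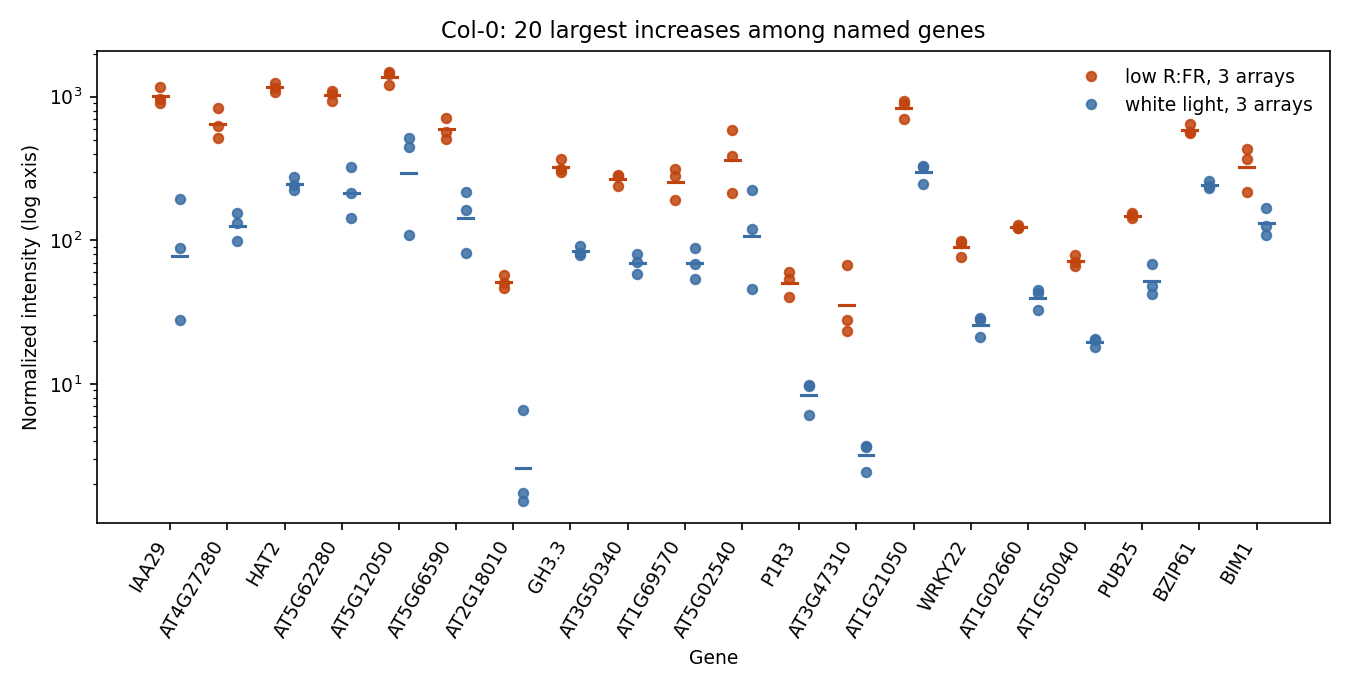
Normalized intensity (log axis) of the 20 named genes with the largest increases on each Col-0 array, low R:FR left of white light. For 19 of the 20 genes the SH and Wc arrays do not overlap (5.62% of all tested probe sets in this direction), but they were called on these same arrays. IAA29 shows the widest white-light spread of the genes in the auxin lists.

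Of the 66 raised genes 49 carry a locus ID only, and 12 of these are among the 20 largest increases. AT4G27280, a calcium-binding EF-hand protein, had 516, 628 and 841 in low R:FR, against 133, 99.4 and 154 in white light (2.22, SE 0.17, limma adjusted p = 3.81e-08). AT5G62280 had 1042, 933 and 1097 in low R:FR, against 325, 212 and 143 in white light (2.17, SE 0.21, limma adjusted p = 1.25e-06). In both genes each SH array exceeded each Wc array by a wide margin. AT5G12050 had 1438, 1482 and 1208 in low R:FR, against 520, 447 and 108 in white light (2.15, SE 0.36, limma adjusted p = 0.00134). AT5G66590 had 710, 572 and 510 in low R:FR, against 218, 162 and 81 in white light (1.93, SE 0.30, limma adjusted p = 0.000473). In these genes Wc replicate 3 was the lowest array.

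AT3G50340 had 282, 240 and 284 in low R:FR, against 80.4, 58.3 and 70.2 in white light (1.74, SE 0.13, limma adjusted p = 1.71e-08). AT1G69570 had 282, 313 and 190 in low R:FR, against 68.6, 88.9 and 53.9 in white light (1.67, SE 0.24, limma adjusted p = 0.000193). AT1G21050 had 928, 888 and 698 in low R:FR, against 323, 331 and 247 in white light (1.43, SE 0.16, limma adjusted p = 9.63e-06). Their groups were well apart. AT5G02540 had 590, 386 and 212 in low R:FR, against 225, 120 and 45.9 in white light (1.59, SE 0.35, limma adjusted p = 0.0187). It is the 1 named raised gene whose groups overlap, and its call was lost in 4 of the 6 fits that left out 1 array.

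AT1G02660 had 128, 122 and 122 in low R:FR, against 45.3, 32.6 and 42.7 in white light (1.33, SE 0.15, limma adjusted p = 7.01e-06). AT1G50040 had 79.1, 66.6 and 70.2 in low R:FR, against 18.2, 20.3 and 20.5 in white light (1.30, SE 0.16, limma adjusted p = 1.8e-05). Both had even groups. AT3G47310, measured on a probe set of a type that can match related transcripts, had 23.4, 67.6 and 27.7 in low R:FR, against 3.71, 2.44 and 3.64 in white light (1.44, SE 0.29, limma adjusted p = 0.00737). Its change was 3.11 with a pseudocount of 1 and 0.60 with 64.

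The other 37 raised genes with a locus ID only were called at changes between 0.40 and 1.19. Of these 13 were called in each of the 6 fits that left out 1 array, and 16 were lost in 4 or more. AT3G19680 had nearly constant groups, with 521, 548 and 526 in low R:FR and 230, 227 and 237 in white light (1.15, SE 0.13, limma adjusted p = 9.16e-06). AT4G25260 had 435, 369 and 400 in low R:FR and 199, 169 and 216 in white light (0.99, SE 0.11, limma adjusted p = 8.56e-06). Small changes were called where arrays were even, as for AT3G54200 with 247, 249 and 250 in low R:FR and 176, 179 and 165 in white light (0.49, SE 0.12, limma adjusted p = 0.0474). That call sits just inside the threshold, as does AT5G02580 at 1.02 (adjusted p = 0.0486), while AT1G19330 at -0.62 (adjusted p = 0.0524) is just outside.

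White-light arrays differed in how low they ran. Wc replicate 3 was the lowest of the 3 white-light arrays for 32 of the 66 raised genes (48.5%), against 36% of all tested probe sets. Wc replicates 1 and 2 were lowest for 16 and 18 genes (24.2% and 27.3%, against 35.5% and 28.5%). Without all arrays numbered 3, 17 of the 81 called genes were no longer called and the change of IAA29 was 2.88. Without Wc replicate 3 alone, 167 probe sets were called (139 higher, 28 lower), and 20 of the 81 genes were no longer called.

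Lowered genes were fewer and changed less. The 15 named ones did not overlap between the lights in any case, against 6.04% of all tested probe sets without overlap in this direction. They were called on the same arrays, so this is a description only. AT1G78170 had 167, 132 and 169 in low R:FR, against 340, 296 and 401 in white light (-1.07, SE 0.13, limma adjusted p = 1.4e-05). AT1G51805 had 168, 156 and 170 in low R:FR, against 363, 355 and 293 in white light (-0.96, SE 0.14, limma adjusted p = 0.000263). AT1G74940 had 75.3, 89.7 and 67 in low R:FR, against 150, 141 and 168 in white light (-0.86, SE 0.13, limma adjusted p = 0.000413). All 3 were called in each of the 6 fits that left out 1 Col-0 array. AT3G44450, a cryptochrome inhibitor, had 50.4, 40.2 and 27.7 in low R:FR, against 85.3, 102 and 65.2 in white light (-0.86, SE 0.19, limma adjusted p = 0.0199). Its call was lost in 4 of those 6 fits. UGT88A1, a UDP-glucosyltransferase and the 1 lowered gene with a symbol, had 789, 723 and 681 in low R:FR, against 1095, 1059 and 946 in white light (-0.49, SE 0.10, limma adjusted p = 0.00676).

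AT4G24780 had 400, 411 and 403 in low R:FR, against 868, 728 and 566 in white light (-0.79). AT1G34420 had 7.71, 11.2 and 7.18 in low R:FR, against 25.4, 31.7 and 22.8 in white light (-0.78), and was lost in all 6 fits. AT1G77280 had 25.2, 39.4 and 32.9 in low R:FR, against 76.1, 59.2 and 49.6 in white light (-0.68). The calls of AT4G24780 and AT1G77280 were lost in 1 and 3 of the 6 fits. AT1G15260 had 362, 290 and 353 in low R:FR, against 521, 581 and 523 in white light (-0.67). AT1G54820 had 160, 166 and 145 in low R:FR, against 283, 264 and 219 in white light (-0.64). AT5G06270 had 185, 228 and 227 in low R:FR, against 319, 340 and 357 in white light (-0.63). These last genes were called in each fit that left out 1 array.

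AT4G19380 had 65.8, 75.8 and 74.7 in low R:FR, against 118, 139 and 102 in white light (-0.61). AT3G02910 had 180, 185 and 174 in low R:FR, against 236, 333 and 278 in white light (-0.60). AT5G38220 had 66.6, 65.5 and 59 in low R:FR, against 98.8, 109 and 98 in white light (-0.57). These calls were lost in 4, 5 and 2 of the 6 fits. AT3G45210 had 84.3, 97.9 and 84 in low R:FR, against 136, 141 and 133 in white light (-0.55) and was lost in 5. Without normalization between arrays 4 of the 15 lowered genes were still called. In that fit the median residual SD was 0.304, against 0.187 with normalization, and limma pooled the variances with 224 prior degrees of freedom, against 9.08, so its p-values are not on the same footing.

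**Figure D3:**
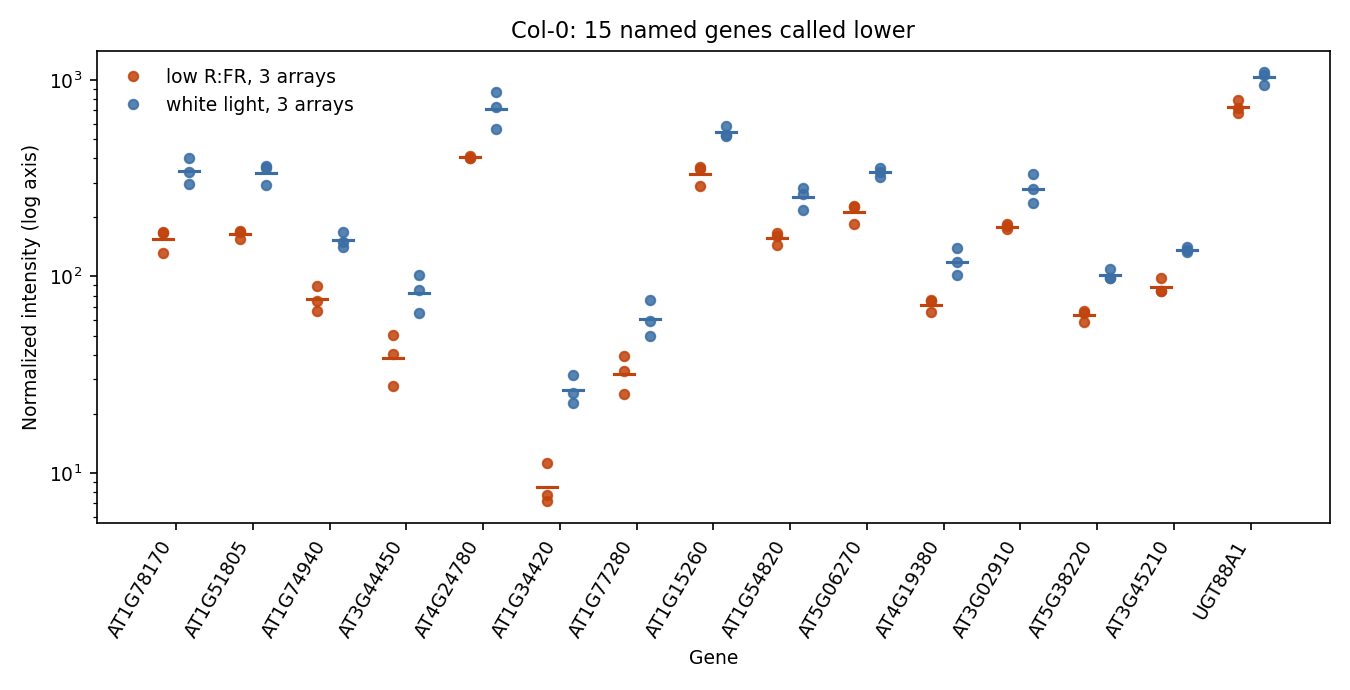
Normalized intensity (log axis) of the 15 named genes called lower on each Col-0 array, low R:FR left of white light. None of the genes overlaps between the lights (6.04% of all tested probe sets do not in this direction), but they were called on these same arrays. The largest decrease is that of AT1G78170 at -1.07.

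Lists linked to light and hormones are given by their values, and at a background of 0.706% higher and 0.16% lower a list of this size with no call is not a result about it. Of 29 genes of photosystems, light harvesting and Rubisco none was called, with 22 positive and a median of 0.08, and 4 were called higher without the arrays numbered 3. This list shares members with the plastid-encoded genes given below, among them psbB, its highest at 0.9, so the 2 lists are not separate. No gibberellin gene of 4 was called (GID1B at 0.21, GID1C at -0.21), nor either of the clock genes GI (0.03) and CCR2 (-0.01). The 4 flavonoid genes had a median of -0.21, with UGT78D2 at -0.44 (SE 0.14, adjusted p = 0.228). The 6 genes on the touch and calcium list had a median of 0.21. That list leaves out AT4G27280, the calcium-binding EF-hand gene called higher at 2.22. MYC3, a jasmonate factor, stood at -0.46 (SE 0.12, limma adjusted p = 0.0929). Cytochromes P450 had a median of -0.15 with 2 of 14 positive, and UDP-glycosyltransferases a median of -0.07 with 8 of 34 positive and 1 called lower. Of 41 lists 35 had a tested member, and 12 held at least 1 call. Lists share members, such as IAA29 in the Aux/IAA and shade marker lists, so the 12 do not rest on separate genes. Most classical shade markers are named by no probe set used here, and the 6 that were tested were all called higher (median 1.17). That list was put together with these results known, and without normalization 4 of the 6 were called.

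**Figure D4:**
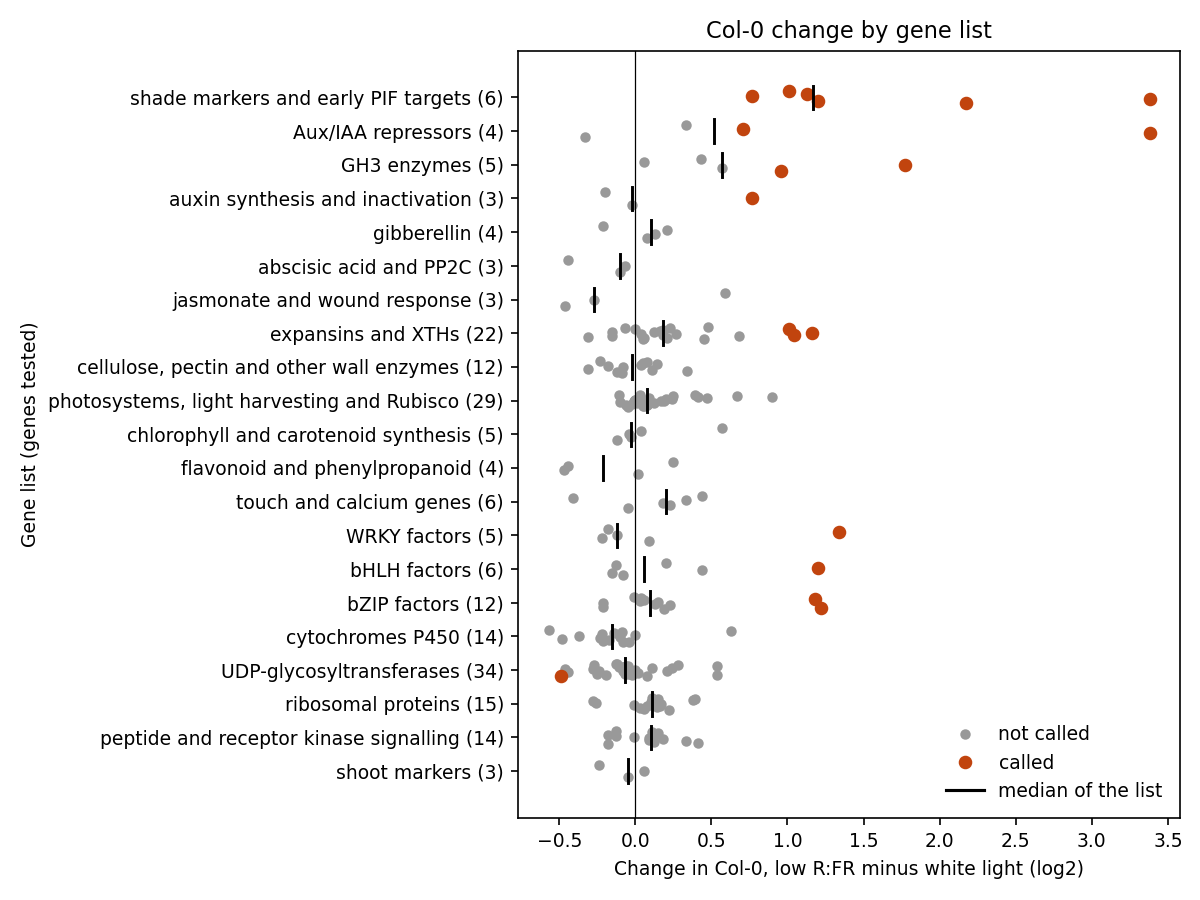
Log2 change (low R:FR minus white light) of each tested member by gene list, with the median of each list. The median of all tested probe sets, which is not drawn, was -0.0117. The GH3 list has a median of 0.57 and the P450 list one of -0.15, and the shade marker list, at 1.17, was put together with these results known.

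Genes encoded in the plastid genome, a list chosen after values had been seen, held no call among 69, with 55 positive and a median of 0.14. Without the arrays numbered 3 the median was 0.20 (-0.011 over all tested probe sets) and 11 were called higher and none lower, where 1.1% of all tested probe sets were called higher. Wc replicate 3 was the highest white-light array for 39 of these genes (56.5%, against 36.3% of all tested). The median log2 level of the list was nonetheless lowest on Wc replicate 3 among the white-light arrays (10.18, against 10.27 and 10.22). Among the SH arrays it was also lowest on replicate 3 (10.21, against 10.47 and 10.44). psbB, of the photosystem II core, had 1462, 1374 and 786 in low R:FR, against 280, 456 and 1815 in white light (0.90, SE 0.53, limma adjusted p = 0.76). Without the arrays numbered 3 its change was 1.94 (limma adjusted p = 0.000481), so the call depends on those arrays. psaC, of photosystem I, had 595, 481 and 411 in low R:FR, against 262, 247 and 428 in white light (0.67, SE 0.20, limma adjusted p = 0.168), and stood at 1.03 without those arrays (limma adjusted p = 0.000114).

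Neighbouring genes could be compared for few members. Of the 40 raised genes with a measured neighbour, 2 (5%) had a neighbour that was called higher, against 53 of 5600 other genes (0.946%). The 2 form a single pair, HAT2 and AT5G47380, so nothing is read from these shares. AT5G47380 had 73.2, 58.1 and 58.6 in low R:FR, against 32.9, 39.9 and 30.4 in white light (0.65, SE 0.13, limma adjusted p = 0.00721).

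The change of Col-0 was set against that of each mutant as a difference of responses. Against sav3-2, a mutant of the auxin synthesis gene TAA1, 7 of 17125 probe sets differed (0.0409%), each with a positive difference, and 682 had an unadjusted p under 0.05. Of the 81 called genes 3 were among the 7, and 22 had an unadjusted p under 0.05. These genes were chosen on the Col-0 change, which enters the difference. GH3.3 rose by 1.77 in Col-0 and stood at 0.29 in sav3-2 (difference 1.48, SE 0.20, limma adjusted p = 0.00147). HAT2 rose by 2.17 in Col-0 and by 0.98 in sav3-2 (difference 1.19, SE 0.19, limma adjusted p = 0.0102). AT3G50340 rose by 1.74 in Col-0 and by 0.70 in sav3-2 (difference 1.04, SE 0.18, limma adjusted p = 0.0234).

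For IAA29 the changes were 3.38 in Col-0 and 2.74 in sav3-2 (difference 0.64, SE 0.49), and for YUC2 0.77 in Col-0 and 1.16 in sav3-2 (difference -0.39), neither of which passed. Against sav1-1 limma called 0 of 17125 probe sets, and 431 had an unadjusted p under 0.05, among them 12 of the 81 genes. Those genes were chosen on the Col-0 change, which enters this difference too. The 431, like the 682 for sav3-2, are fewer than that threshold would pass by chance alone among 17125 probe sets. Neither count is read as a sign of further differences. A missed threshold does not show that the responses were alike.

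**Figure D5:**
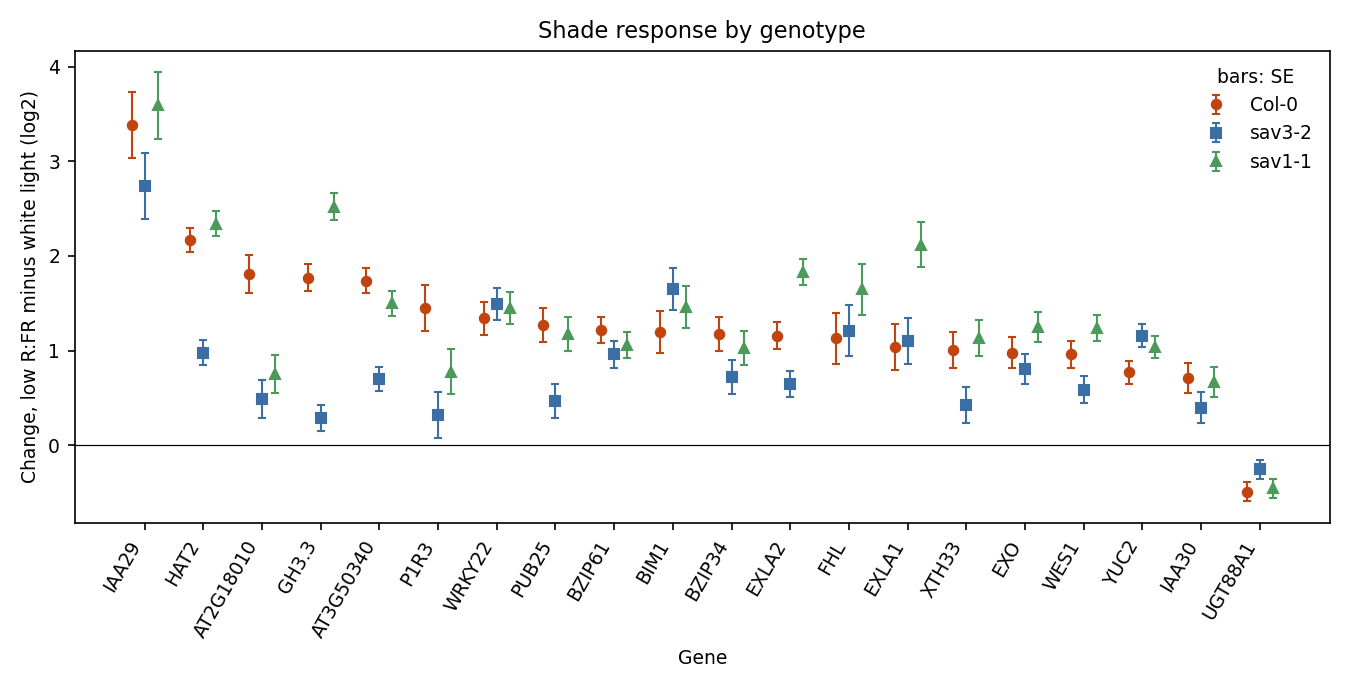
Log2 change (low R:FR minus white light, with SE) in Col-0, sav3-2 and sav1-1 for called genes. GH3.3 stands at 1.77 in Col-0 and 0.29 in sav3-2, and IAA29 at 3.38 in Col-0 and 2.74 in sav3-2.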

How the data were processed

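The authors deposited 1 linear intensity per probe set and array for 18 Affymetrix arrays, 3 per genotype and light. GCRMA is named, without a version, per the submitters' processing notes; its settings are not given in the sources used here. Groups and replicate numbers came from the titles. From the deposited intensity values, 64 of 22810 probe sets (controls) were left out, the 18 arrays were quantile normalized, and probe sets with a log2 value above 4 on at least 3 arrays were kept (17125 of 22746). Quantile normalization hides a shift of most genes in 1 direction. Tests used log2(value + 16), which understates the change of dim genes, in a group means model over 18 arrays with limma 3.58.1 in R 4.3.3 (eBayes with an intensity trend), two-sided, Benjamini-Hochberg adjusted over all tested probe sets and called at an adjusted p-value under 0.05. SE is from the moderated variance. The limma fit was tested on simulated data drawn on the normalized log2 scale, so normalization, pseudocount and filter were not tested. The number of arrays limits the precision.

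Of the probe sets, 13513 name 1 gene, 503 several and 8730 none; 13484 of the first matched a TAIR10.1 gene table, used for names and neighbours only. Lists use the brightest probe set of a gene. Genes were matched to lists by symbol, synonym, locus ID or a pattern in the symbol. Members of a family that carry a locus ID only can therefore be missing from its list. Coordinates and sequences are left out, as the sources name no genome build. Every called probe set naming 1 gene could be named, with the 20 largest increases and the 15 largest decreases given on all 6 arrays. The members and lists were chosen with earlier results of these data known. Alternatives were other scaling, pseudocounts, filters, Col-0 arrays alone, a replicate block, no trend, array weights, and leaving out arrays.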

Additional observations from a re-analysis of the deposited data

Results flagged for a closer look

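The responses of 3 called genes differed between Col-0 and sav3-2 by a test of the difference itself, an interaction contrast in limma. The difference (Col-0 minus sav3-2, log2) was 1.48 for GH3.3, 1.19 for HAT2 and 1.04 for AT3G50340. All 3 changes were larger in Col-0, but the genes were chosen on the Col-0 change, which enters the difference.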

How the results depend on the processing

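None of the 81 called genes reversed under the alternatives run. Uncalled genes near 0 did change sign, such as EXPA7 (-0.05 to 0.45) and UGT74D1 (-0.19 to 0.03). The count of called probe sets in Col-0 (191) was 85 without normalization (76 higher, 9 lower) and lay between 137 and 190 when 1 Col-0 array was left out. Of the 81 called genes 44 were called in every fit that left out 1 array, and 31 without normalization. The p-values of the unnormalized fit are not comparable with the others: array scale differences raised the median residual SD to 0.304 (0.187 with normalization), the prior degrees of freedom were 224 (9.08 with normalization), and the moderated SD of 253066_at was 0.346 where its own residual SD was 0.742. Both lost and kept calls of that fit therefore depend on how the variances were pooled. The replicate numbers were not taken to pair the arrays in the main fit. The deviations of the same-numbered Col-0 arrays correlated at 0.171, 0.0714 and 0.29. Wc replicate 2 correlated better with SH replicate 1 (0.0988) than with its own number. Wc replicate 3 correlated at -0.242 and -0.102 with SH replicates 1 and 2, and SH replicate 3 at -0.184 and -0.144 with Wc replicates 1 and 2. Deviations from a group mean cancel out within the group, so these negative values follow in part from the 0.29. They are not separate evidence. By the 0.29 and the second principal component the arrays numbered 3 deviated together, which the main fit does not model. With a replicate block 356 probe sets were called (255 higher, 101 lower), among them all 191. The count for Col-0 minus sav3-2 (7) was 3 without normalization, 2 with a pseudocount of 1, 12 with a pseudocount of 64, 12 with array weights, and 4 to 10 when 1 Col-0 array was left out, with 4 without Wc replicate 2. For Col-0 minus sav1-1 (0) it was 2 without the arrays numbered 3. Promoter motif shares were planned and not run, as no promoter sequences were used here.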
